A study of Mus musculus with 78 samples.

Results

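Fast chemical transmission in the mouse brain runs mostly on glutamate and GABA, and the genes described here encode the subunits of the receptors for these transmitters. The set held every gene of the deposited expression table whose symbol names an AMPA (Gria), kainate (Grik), NMDA (Grin), delta (Grid) or metabotropic (Grm) glutamate receptor subunit, or a GABA-A (Gabr) or GABA-B (Gabbr) receptor subunit. It counted 47 of the 20673 genes in the table, 26 for glutamate and 21 for GABA, and no expression value was used to choose them. They were followed across the hippocampus and the hypothalamus of C57BL/6 mice. The study put mice through circadian rhythm disruption (CRD) or kept them as controls (CON) at labelled ages of 18 months and 8 weeks, and sequenced poly(A) RNA from brain, gut and blood. The disrupted schedule swapped day and night every 3 days over 4 weeks, alternated 48 h of light with 48 h of darkness over the next 3 weeks, and ended with 1 week of constant light. CON mice had 12 h of light and 12 h of darkness. Mice of both schedules ate freely. Each brain region had 5 libraries from 18-month CRD mice, 4 from 18-month CON mice, 5 from 8-week CRD mice and 5 from 8-week CON mice. The schedule itself lasted 8 weeks, so the label of 8 weeks cannot be the age of the CRD mice at collection. The labels give no sex, hour of collection or batch. The labels do not state that the replicates of a group are separate animals, so the p-values below measure only the spread between these samples.

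Ionotropic glutamate receptors are cation channels assembled from several subunits. AMPA receptors carry most of the fast excitatory current, NMDA receptors need GluN1 (Grin1) together with GluN2 or GluN3 subunits and admit calcium, and kainate receptors modulate release and excitability. Metabotropic glutamate receptors and GABA-B receptors act through G proteins. GABA-A receptors are chloride channels of mixed subunits, and which alpha, gamma, delta, epsilon or theta subunit they hold sets their affinity, their place on the cell and their response to benzodiazepines and anaesthetics. In the hypothalamus, GABA and glutamate are also the fast transmitters of the suprachiasmatic clock.

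Levels are given as the deposited FPKM (fragments per kilobase of transcript scaled to the mapped total), which divides by transcript length. Genes are set beside each other on that scale, and their order depends on the transcript models used upstream. Summed FPKM ran between 432120 and 572255 in the 19 hippocampus libraries and between 430706 and 479949 in the 19 hypothalamus libraries, and read depth is unknown, since FPKM does not keep it. Markers went with the region labels. The summed level of 8 hippocampal markers was 178 to 302 FPKM in hippocampus and 18.4 to 24.1 FPKM in hypothalamus, and that of 10 hypothalamic markers was 7.19 to 45.8 FPKM in hippocampus and 1484 to 4179 FPKM in hypothalamus. Summed levels of 8 neuronal markers overlapped, at 1684 to 2570 FPKM in hippocampus and 1639 to 2151 FPKM in hypothalamus, but single markers differed in both directions. Rbfox3 averaged 73.6 FPKM in hippocampus and 35.1 FPKM in hypothalamus, and Snap25 880 and 621 FPKM. Tubb3 averaged 138 FPKM in hippocampus and 285 FPKM in hypothalamus, and Stmn2 166 and 233 FPKM. These are bulk samples, in which fewer cells of a type and less RNA per cell cannot be told apart. In 4 hippocampus libraries, replicates 1 and 4 of 18-month CRD and replicates 2 and 4 of 8-week CRD, Ttr, the transthyretin gene that marks choroid plexus, was under 500 FPKM. All 9 CON hippocampi were above that limit.

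Promoter windows of 4 members are shown because the results turn on them. Gabra5 had the largest regional difference in favour of hippocampus among members with a hippocampal mean of at least 10 FPKM, Gabre and Gabrq had the largest regional differences in favour of hypothalamus, and Grin1 encodes the subunit that NMDA receptors need. Each window runs from 250 bases before to 50 bases after the start of a RefSeq transcript on build GRCm38.p6, written 5′ to 3′ on the strand of the gene. Capitals mark CACGTG, the palindromic E-box that the clock factors CLOCK and BMAL1 bind, and the other bases are in lower case.
Gabra5: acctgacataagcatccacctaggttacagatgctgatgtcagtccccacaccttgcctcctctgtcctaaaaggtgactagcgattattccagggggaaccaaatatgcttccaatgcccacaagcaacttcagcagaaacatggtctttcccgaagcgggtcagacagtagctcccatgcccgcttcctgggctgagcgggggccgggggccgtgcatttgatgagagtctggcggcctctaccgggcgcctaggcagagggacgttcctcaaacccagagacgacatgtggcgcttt
Gabre: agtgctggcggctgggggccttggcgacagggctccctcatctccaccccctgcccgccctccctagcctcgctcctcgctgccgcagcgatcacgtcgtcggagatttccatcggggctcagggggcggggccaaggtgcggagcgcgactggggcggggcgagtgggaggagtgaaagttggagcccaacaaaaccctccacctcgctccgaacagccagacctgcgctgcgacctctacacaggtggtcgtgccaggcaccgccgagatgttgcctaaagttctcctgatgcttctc
Gabrq: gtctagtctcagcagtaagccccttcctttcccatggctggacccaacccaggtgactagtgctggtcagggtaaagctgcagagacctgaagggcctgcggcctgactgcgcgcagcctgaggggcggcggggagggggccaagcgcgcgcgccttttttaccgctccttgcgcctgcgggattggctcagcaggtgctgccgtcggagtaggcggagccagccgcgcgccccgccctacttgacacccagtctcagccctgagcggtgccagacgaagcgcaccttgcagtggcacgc
Grin1: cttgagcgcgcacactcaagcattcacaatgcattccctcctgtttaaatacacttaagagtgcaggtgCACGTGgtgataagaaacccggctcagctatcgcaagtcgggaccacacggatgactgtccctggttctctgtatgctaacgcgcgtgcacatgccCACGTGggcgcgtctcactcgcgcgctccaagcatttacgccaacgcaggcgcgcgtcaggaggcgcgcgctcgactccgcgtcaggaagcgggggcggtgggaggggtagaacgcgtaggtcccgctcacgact
The Gabra5 window lies at chr7:57510010-57510309 on the minus strand, the Gabre window at chrX:72274672-72274971 on the minus strand, the Gabrq window at chrX:72824928-72825227 on the plus strand and the Grin1 window at chr2:25319138-25319437 on the minus strand. Their G and C content was 56.7% for Gabra5, 66.7% for Gabre, 67.0% for Gabrq and 60.7% for Grin1. RefSeq windows matched 32 of the 47 members. Searching both strands for CACGTG found it in 7.15% of the 32851 mouse windows of that length and in 1 of the 39 windows of the members, that of Grin1, which held it at 181 and at 85 bases before the start. Other clock-linked elements were rarer. The D-box (TTATGTAA, TTACATAA or TTACGTAA) stood in 1.06% of all windows and in the Gabrr2 window among members, and the cyclic AMP response element TGACGTCA stood in 1.79% of all windows and in no window of a member. These matches describe letters in a window and say nothing of binding.

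Most of the receptor genes were expressed in both regions. A mean of at least 0.5 FPKM was reached by 39 members in hippocampus and 40 in hypothalamus, 38 of them the same genes, and a mean of at least 10 FPKM by 25 members in hippocampus and 24 in hypothalamus. Under 0.5 FPKM in both regions were 6 members. These were Grin3b, an NMDA receptor subunit known from motor neurons, Grm6, the receptor of retinal ON bipolar cells, Gabra6, the alpha subunit of cerebellar granule cells, Gabrp, and the rho subunits Gabrr1 and Gabrr3, which are best known from retina. Gabre and Gabrq passed 0.5 FPKM in hypothalamus only, and Grin2a, with 2.99 ± 1.43 FPKM in hippocampus, had 0.487 ± 0.190 FPKM in hypothalamus (SD, n = 19 each).

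The most abundant transcript in either region was Gabbr1, the GABA-B subunit that binds GABA, at 122 ± 11.2 FPKM in hippocampus and 158 ± 12.6 FPKM in hypothalamus (SD, n = 19 each). In 8-week CON hippocampi it was followed by Gria1 at 121 ± 8.32 FPKM, Gria2 at 112 ± 16.2 FPKM and then Gabra5 at 79.7 ± 4.98 FPKM (SD, n = 5). The ranges of Gabbr1, Gria1 and Gria2 overlapped from each gene to the next in that order, and Gria2 lay above Gabra5 without overlap. In 8-week CON hypothalami Gabbr1 at 166 ± 15.3 FPKM stood apart from Gria1 at 82.6 ± 8.65 FPKM.

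**Figure D1:**
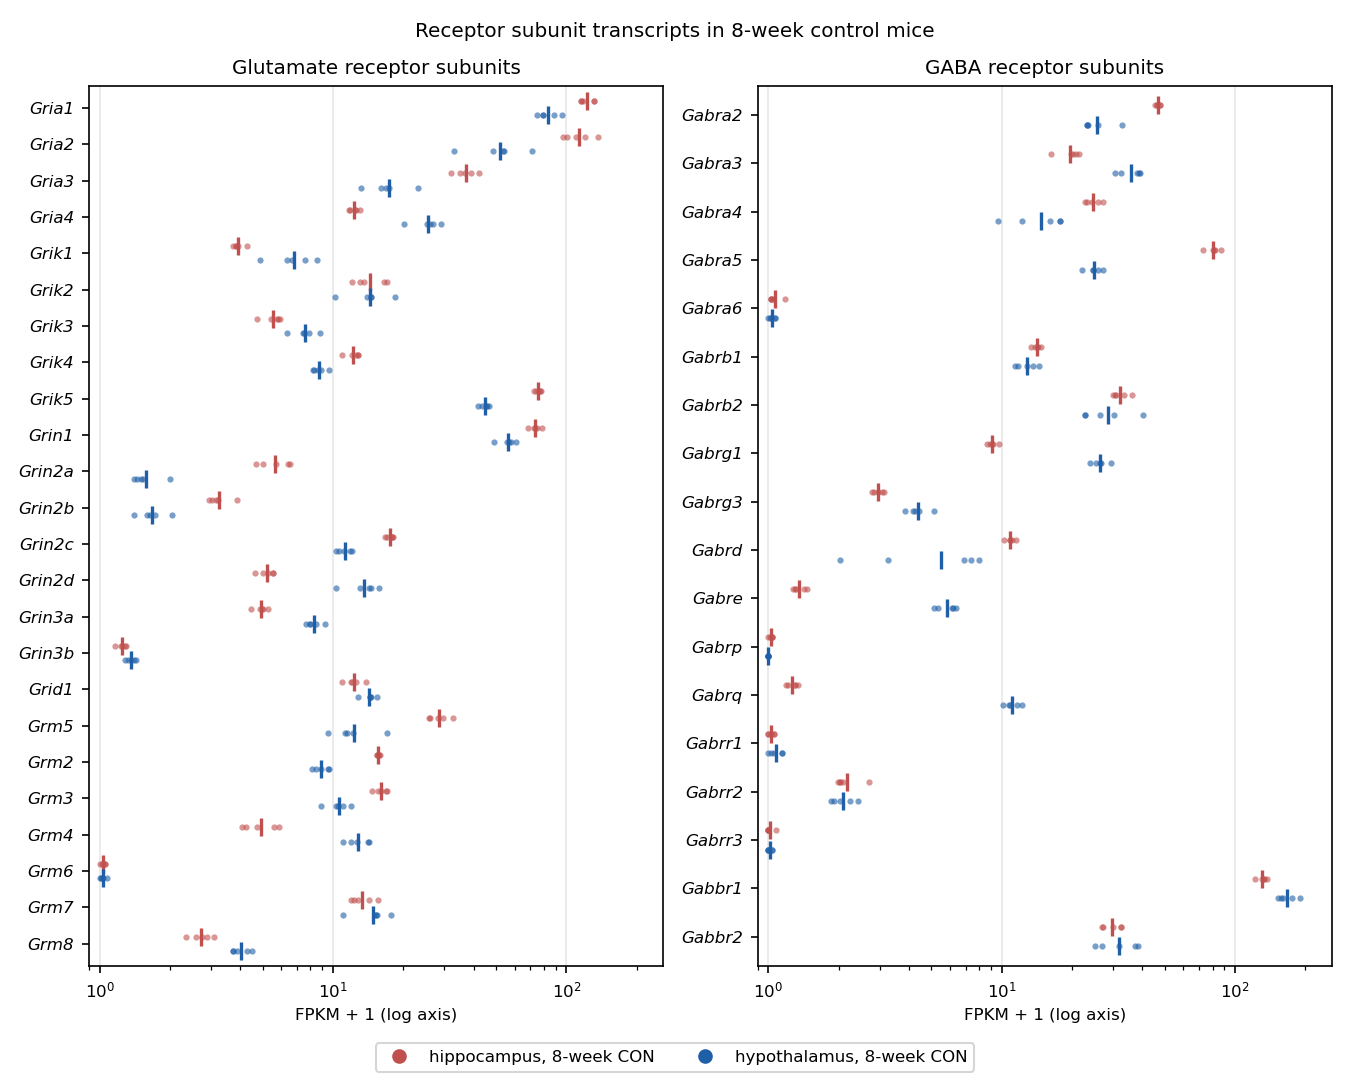
FPKM + 1 on a log axis for 42 of the 47 receptor genes in 8-week CON mice, with a point per library (n = 5 per region) and a vertical tick at the mean; hippocampus is drawn above hypothalamus in each row. Gabra5 and Gria3 lie to the right in hippocampus, while Gabrq, Gabre and Gabrg1 lie to the right in hypothalamus.

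The choice of subunits differed between hippocampus and hypothalamus in most families. In CON mice of 18 months, 31 of the 41 members tested differed at an adjusted p under 0.05, with 16 higher in hippocampus and 15 lower. In CON mice of 8 weeks, 32 of 41 differed, 17 of them higher and 15 lower. The same 16 genes were higher and the same 15 lower at both ages, Gabrd passed at 8 weeks only, and none changed direction. Regional differences were common among all genes too: 47.6% of the 14500 genes tested passed at 18 months (18.5% higher and 29.1% lower in hippocampus) and 50.5% at 8 weeks (17.6% higher and 33% lower). Among the 9 members that passed at neither age were Grik2, Grid1, Grm7, Gabrb1, Gabrb2, Gabrr2 and Gabbr2. The test was limma on log2(FPKM + 1) with Benjamini-Hochberg adjustment over all genes averaging 0.5 FPKM or more, and every log2 difference below is hippocampus minus hypothalamus on that scale, which understates the change of low genes, with its standard error.

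**Figure D2:**
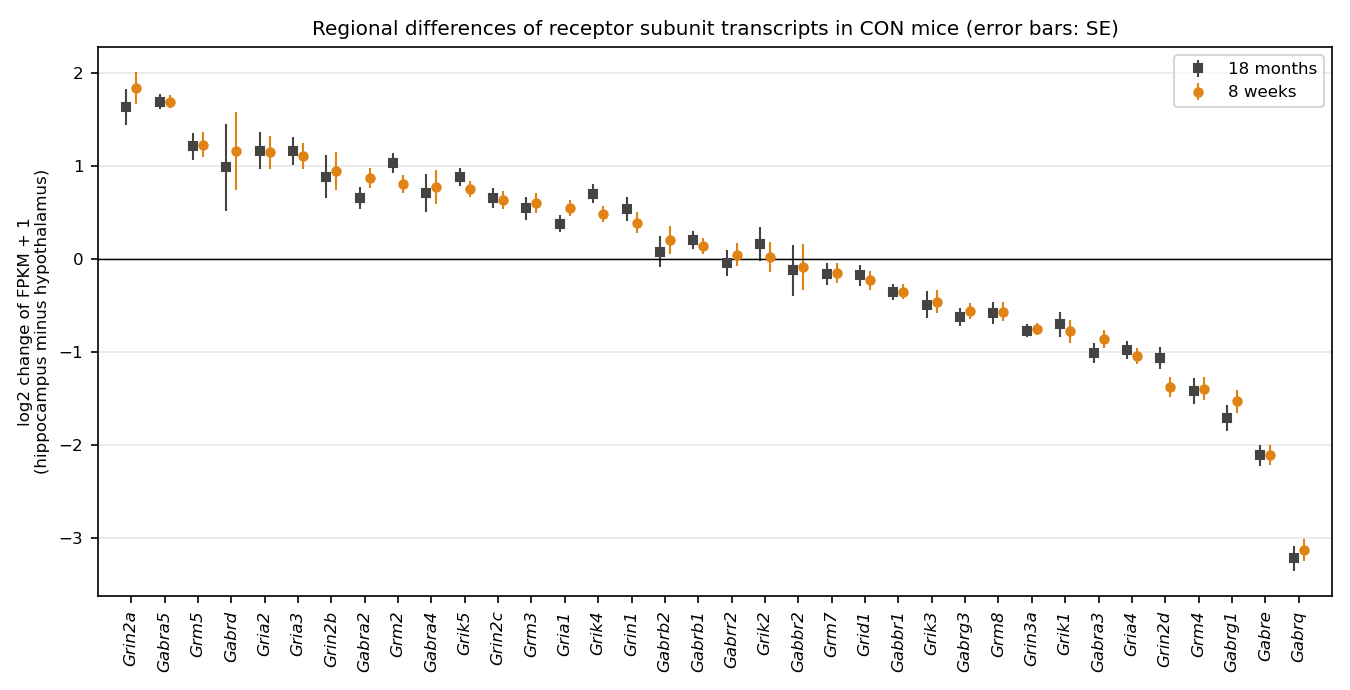
Log2 difference of FPKM + 1 between hippocampus and hypothalamus in CON mice for 36 of the 41 members tested, at 18 months (squares, n = 4 per region) and 8 weeks (circles, n = 5 per region); bars are standard errors. Genes run from Grin2a and Gabra5, higher in hippocampus, to Gabre and Gabrq, lower in hippocampus, and the symbols of both ages lie close together.

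Among AMPA receptor genes, Gria1, Gria2 and Gria3 were higher in hippocampus and Gria4 was lower. Gria1 encodes the subunit delivered to synapses during long-term potentiation, and lies at chromosome 11, 57011387 to 57330244, plus strand. Gria1 had 120.2, 134, 109, 103 and 114 FPKM in 18-month CRD and 102, 131, 119 and 114 FPKM in 18-month CON hippocampi, and 134, 115, 91.5, 124 and 113 FPKM in 8-week CRD and 117, 131, 114, 129.7 and 114 FPKM in 8-week CON hippocampi. Gria1 had 81.0, 71.9, 77.5, 75.9 and 73.6 FPKM in 18-month CRD and 90.4, 91.9, 82.0 and 90.2 FPKM in 18-month CON hypothalami, and 81.8, 90.0, 72.4, 82.3 and 85.8 FPKM in 8-week CRD and 73.5, 78.5, 78.1, 87.7 and 95.0 FPKM in 8-week CON hypothalami. Only 1 hippocampus library, 8-week CRD replicate 3, lay below the highest hypothalamus library, and the log2 difference was 0.38 ± 0.09 at 18 months (adjusted p = 8.34e-04) and 0.55 ± 0.08 at 8 weeks (adjusted p = 9.43e-07). Gria2, whose edited subunit keeps calcium out of the channel, lies at chromosome 3, 80681450 to 80802835, minus strand. Gria2 had 97.6, 104, 74.6, 84.0 and 66.4 FPKM in 18-month CRD and 75.8, 92.0, 69.4 and 87.2 FPKM in 18-month CON hippocampi, and 96.0, 145, 68.9, 85.9 and 92.9 FPKM in 8-week CRD and 119, 136, 100.1, 109 and 95.6 FPKM in 8-week CON hippocampi. Gria2 had 45.2, 43.1, 52.2, 27.1 and 28.1 FPKM in 18-month CRD and 39.9, 36.2, 33.2 and 32.3 FPKM in 18-month CON hypothalami, and 48.4, 53.3, 64.6, 47.5 and 64.7 FPKM in 8-week CRD and 53.1, 70.0, 52.4, 47.6 and 31.9 FPKM in 8-week CON hypothalami. Gria2 varied more within groups than Gria1, with the lowest values in 18-month hypothalami, and its log2 difference was 1.17 ± 0.20 at 18 months (adjusted p = 8.91e-06) and 1.15 ± 0.18 at 8 weeks (adjusted p = 1.62e-06). Gria3, on the X chromosome, had the like pattern at lower levels. Gria3 had 30.6, 33.2, 21.9, 22.7 and 20.5 FPKM in 18-month CRD and 26.6, 28.8, 22.4 and 27.6 FPKM in 18-month CON hippocampi, and 29.7, 26.3, 22.4, 26.6 and 30.8 FPKM in 8-week CRD and 35.7, 41.2, 34.1, 38.0 and 31.0 FPKM in 8-week CON hippocampi. Gria3 had 14.3, 14.0, 16.3, 10.1 and 9.94 FPKM in 18-month CRD and 11.9, 11.9, 9.59 and 11.3 FPKM in 18-month CON hypothalami, and 14.6, 18.1, 20.2, 14.6 and 19.2 FPKM in 8-week CRD and 15.1, 22.1, 16.0, 16.3 and 12.2 FPKM in 8-week CON hypothalami. The regions did not overlap in CON mice of either age, and the log2 difference was 1.17 ± 0.15 at 18 months (adjusted p = 8.11e-08) and 1.11 ± 0.14 at 8 weeks (adjusted p = 1.89e-08). Gria4, the fast-gating subunit of many interneurons and of thalamus, lies at chromosome 9, 4417896 to 4796234, minus strand. Gria4 had 11.7, 11.2, 10.6, 9.93 and 8.45 FPKM in 18-month CRD and 10.0, 9.18, 9.29 and 10.6 FPKM in 18-month CON hippocampi, and 9.13, 9.49, 9.55, 10.1 and 11.6 FPKM in 8-week CRD and 10.7, 12.1, 11.4, 10.8 and 11.6 FPKM in 8-week CON hippocampi. Gria4 had 22.6, 20.3, 24.8, 18.2 and 18.2 FPKM in 18-month CRD and 21.3, 21.2, 19.2 and 19.1 FPKM in 18-month CON hypothalami, and 23.4, 25.9, 27.9, 24.1 and 28.5 FPKM in 8-week CRD and 24.3, 28.1, 25.7, 25.2 and 19.1 FPKM in 8-week CON hypothalami. Every hypothalamus library was above every hippocampus library, and the log2 difference was -0.98 ± 0.10 at 18 months (adjusted p = 2.11e-10) and -1.04 ± 0.09 at 8 weeks (adjusted p = 2.39e-12). As a share of the summed AMPA receptor FPKM, Gria4 made up 4.1 to 4.4% in the 4 hippocampus groups and 13.0 to 14.3% in the 4 hypothalamus groups, and Gria2 34.7 to 39.8% in hippocampus and 22.8 to 30.6% in hypothalamus.

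Kainate receptor genes differed in direction between the regions. Grik5, an auxiliary kainate subunit that needs a partner from Grik1 to Grik3, had 74.5 ± 9.50 FPKM in hippocampus and 42.5 ± 3.01 FPKM in hypothalamus (SD, n = 19 each), with log2 differences of 0.89 ± 0.10 at 18 months and 0.76 ± 0.09 at 8 weeks. Grik4, its high-affinity relative known from CA3 neurons, was higher in hippocampus as well, by 0.71 ± 0.10 at 18 months and 0.49 ± 0.09 at 8 weeks. Grik1 and Grik3, which encode channel-forming low-affinity subunits, were lower in hippocampus, by -0.70 ± 0.14 at 18 months and -0.77 ± 0.12 at 8 weeks for Grik1 and -0.49 ± 0.14 at 18 months and -0.45 ± 0.13 at 8 weeks for Grik3. Grik2 had 11.6 ± 2.38 FPKM in hippocampus and 12.4 ± 3.31 FPKM in hypothalamus and passed at neither age. Grid1, a delta receptor that organises synapses by binding cerebellins and is not opened by glutamate, did not pass at either age, at 11.4 ± 1.58 FPKM in hippocampus and 13.4 ± 1.00 FPKM in hypothalamus (SD, n = 19 each). Cbln1, which encodes a cerebellin that links delta receptors to neurexins, was lower in hippocampus. It had 2.20 ± 0.384 FPKM in hippocampus and 45.5 ± 5.30 FPKM in hypothalamus of 18-month CON mice (SD, n = 4 each), a log2 difference of -3.86 ± 0.18 (adjusted p = 3.28e-19).

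NMDA receptor genes showed the widest regional contrast among glutamate receptors, in opposite directions for different GluN2 subunits. Grin1 lies at chromosome 2, 25291181 to 25319187, minus strand, and its promoter window holds the 2 E-boxes shown above. Grin1 had 74.6, 75.6, 73.3, 63.6 and 73.5 FPKM in 18-month CRD and 68.9, 75.1, 74.9 and 73.3 FPKM in 18-month CON hippocampi, and 78.5, 123, 52.0, 88.4 and 68.0 FPKM in 8-week CRD and 67.4, 77.3, 71.8, 72.2 and 74.1 FPKM in 8-week CON hippocampi. Grin1 had 56.7, 60.8, 64.9, 55.5 and 57.6 FPKM in 18-month CRD and 49.2, 49.1, 51.5 and 49.6 FPKM in 18-month CON hypothalami, and 57.6, 50.5, 55.9, 63.6 and 55.4 FPKM in 8-week CRD and 55.9, 59.7, 54.7, 56.8 and 48.0 FPKM in 8-week CON hypothalami. Replicate 2 of 8-week CRD hippocampus had the highest Grin1 value and replicate 3 the lowest, while the 9 CON hippocampi stayed within 67.4 to 77.3 FPKM. The log2 difference between regions was 0.54 ± 0.13 at 18 months (adjusted p = 5.68e-04) and 0.40 ± 0.11 at 8 weeks (adjusted p = 0.00388). Grin2a, the GluN2 subunit of mature forebrain synapses, lies at chromosome 16, 9567898 to 9995560, minus strand. Grin2a had 1.87, 3.14, 1.57, 0.87 and 1.93 FPKM in 18-month CRD and 4.24, 4.25, 1.81 and 3.35 FPKM in 18-month CON hippocampi, and 2.46, 0.92, 2.51, 1.59 and 2.95 FPKM in 8-week CRD and 5.39, 5.52, 3.69, 4.02 and 4.71 FPKM in 8-week CON hippocampi. Grin2a had 0.36, 0.33, 0.35, 0.49 and 0.27 FPKM in 18-month CRD and 0.46, 0.33, 0.29 and 0.42 FPKM in 18-month CON hypothalami, and 0.40, 0.69, 0.72, 0.46 and 0.80 FPKM in 8-week CRD and 0.45, 1.00, 0.50, 0.53 and 0.41 FPKM in 8-week CON hypothalami. Every hippocampus library but 2, both CRD, was above the highest hypothalamus library of 1.00 FPKM, and the log2 difference was 1.64 ± 0.19 at 18 months (adjusted p = 6.85e-09) and 1.84 ± 0.17 at 8 weeks (adjusted p = 2.93e-11). With a pseudocount of 0.1 the same differences were 2.83 at 18 months and 2.86 at 8 weeks. Grin2b, the GluN2 subunit that predominates early in development, lies at chromosome 6, 135713233 to 136173511, minus strand. Grin2b had 2.42, 2.49, 2.47, 3.51 and 1.99 FPKM in 18-month CRD and 1.83, 1.77, 1.84 and 1.71 FPKM in 18-month CON hippocampi, and 2.45, 10.8, 1.82, 2.64 and 1.81 FPKM in 8-week CRD and 2.14, 2.87, 1.93, 2.23 and 2.02 FPKM in 8-week CON hippocampi. Grin2b had 0.67, 0.72, 0.63, 0.61 and 0.51 FPKM in 18-month CRD and 0.53, 0.47, 0.67 and 0.37 FPKM in 18-month CON hypothalami, and 0.85, 0.88, 0.85, 0.82 and 0.85 FPKM in 8-week CRD and 0.73, 1.05, 0.64, 0.60 and 0.40 FPKM in 8-week CON hypothalami. Replicate 2 of 8-week CRD hippocampus stood far above the other libraries, and the log2 difference in CON mice was 0.89 ± 0.23 at 18 months (adjusted p = 0.00164) and 0.95 ± 0.21 at 8 weeks (adjusted p = 2.14e-04).

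Grin2c, a GluN2 subunit known from cerebellum and astrocytes, lies at chromosome 11, 115249169 to 115267243, minus strand. Grin2c had 16.1, 11.6, 14.4, 11.0 and 14.0 FPKM in 18-month CRD and 17.0, 14.4, 12.9 and 16.2 FPKM in 18-month CON hippocampi, and 13.6, 15.2, 15.9, 15.9 and 15.2 FPKM in 8-week CRD and 15.7, 16.9, 17.0, 16.1 and 16.8 FPKM in 8-week CON hippocampi. Grin2c had 8.86, 8.43, 9.17, 8.10 and 9.67 FPKM in 18-month CRD and 9.98, 9.72, 7.47 and 9.58 FPKM in 18-month CON hypothalami, and 7.81, 11.6, 12.6, 9.63 and 9.31 FPKM in 8-week CRD and 9.30, 9.66, 11.1, 10.8 and 10.2 FPKM in 8-week CON hypothalami. It was higher in hippocampus, by 0.66 ± 0.11 at 18 months and 0.64 ± 0.10 at 8 weeks. Grin2d, the slowly closing GluN2 subunit of interneurons, diencephalon and brainstem, lies at chromosome 7, 45831883 to 45878378, minus strand. Grin2d had 4.77, 4.06, 4.27, 3.37 and 4.11 FPKM in 18-month CRD and 4.14, 3.19, 3.61 and 3.85 FPKM in 18-month CON hippocampi, and 4.12, 4.05, 3.20, 5.35 and 3.81 FPKM in 8-week CRD and 3.64, 4.28, 4.53, 4.01 and 4.51 FPKM in 8-week CON hippocampi. Grin2d had 10.9, 12.4, 11.6, 8.11 and 8.99 FPKM in 18-month CRD and 9.44, 8.37, 8.19 and 9.20 FPKM in 18-month CON hypothalami, and 10.8, 12.4, 14.1, 12.3 and 11.7 FPKM in 8-week CRD and 13.2, 14.8, 12.1, 13.5 and 9.29 FPKM in 8-week CON hypothalami. The regions did not overlap in any group, and the log2 difference was -1.06 ± 0.12 at 18 months (adjusted p = 3.09e-09) and -1.38 ± 0.11 at 8 weeks (adjusted p = 3.23e-13). Of the summed GluN2 FPKM, Grin2d made up 15.2 to 18.7% in the hippocampus groups and 46.7 to 52.0% in the hypothalamus groups, and Grin2c 59.8 to 63.0% in hippocampus and 42.4 to 48.6% in hypothalamus. FPKM divides by transcript length, and the longest annotated transcripts of Grin2a and Grin2b, with 14634 and 24060 bases, are far longer than those of Grin2c and Grin2d, with 4895 and 5431 bases, so these shares depend on the transcript models used upstream. Grin3a, which lowers calcium entry through NMDA receptors, was lower in hippocampus, by -0.77 ± 0.07 at 18 months and -0.75 ± 0.06 at 8 weeks.

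Metabotropic glutamate receptor genes also split by region. Grm5, which activates phospholipase C, lies at chromosome 7, 87584168 to 88134907, plus strand and was higher in hippocampus. Grm5 had 23.9, 24.3, 17.1, 18.7 and 16.7 FPKM in 18-month CRD and 21.7, 23.5, 17.6 and 22.1 FPKM in 18-month CON hippocampi, and 21.5, 22.2, 17.6, 17.9 and 24.6 FPKM in 8-week CRD and 27.2, 31.7, 25.1, 28.5 and 24.9 FPKM in 8-week CON hippocampi. Grm5 had 8.99, 8.53, 9.36, 7.25 and 6.52 FPKM in 18-month CRD and 9.84, 8.54, 7.65 and 8.18 FPKM in 18-month CON hypothalami, and 9.13, 12.7, 12.1, 8.59 and 12.8 FPKM in 8-week CRD and 10.3, 16.0, 10.5, 11.2 and 8.48 FPKM in 8-week CON hypothalami. The log2 difference was 1.21 ± 0.15 at 18 months (adjusted p = 1.51e-08) and 1.23 ± 0.13 at 8 weeks (adjusted p = 7.75e-10). The group II receptors, which lower cyclic AMP and dampen release, were both higher in hippocampus, Grm2 with log2 differences of 1.03 ± 0.11 at 18 months (adjusted p = 3.66e-10) and 0.81 ± 0.10 at 8 weeks (adjusted p = 5.50e-09), and Grm3 with 0.55 ± 0.12 at 18 months and 0.61 ± 0.11 at 8 weeks. Among the group III receptors of presynaptic terminals, Grm4 was lower in hippocampus. It had 3.30, 2.28, 3.45 and 3.92 FPKM in 18-month CON hippocampi and 9.18, 11.7, 9.51 and 10.5 FPKM in 18-month CON hypothalami. The ranges were far apart, and the log2 difference was -1.41 ± 0.14 at 18 months (adjusted p = 1.21e-10) and -1.39 ± 0.12 at 8 weeks (adjusted p = 9.90e-12). Grm8 was lower too, by -0.58 ± 0.12 at 18 months and -0.56 ± 0.11 at 8 weeks, while Grm7 was not called, at 10.8 ± 1.59 FPKM in hippocampus and 13.1 ± 2.02 FPKM in hypothalamus (SD, n = 19 each).

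The GABA-A alpha subunit genes Gabra2, Gabra3, Gabra4 and Gabra5 differed between the regions at both ages. Gabra5, which places receptors outside synapses of hippocampal pyramidal neurons, lies at chromosome 7, 57407672 to 57510059, minus strand. Gabra5 had 76.1, 79.1, 74.4, 86.4 and 82.4 FPKM in 18-month CRD and 75.3, 87.7, 82.2 and 76.1 FPKM in 18-month CON hippocampi, and 93.3, 85.5, 75.6, 81.6 and 81.4 FPKM in 8-week CRD and 79.4, 72.0, 81.0, 85.8 and 80.3 FPKM in 8-week CON hippocampi. Gabra5 had 24.5, 25.7, 27.1, 21.3 and 23.9 FPKM in 18-month CRD and 24.2, 23.7, 24.8 and 23.7 FPKM in 18-month CON hypothalami, and 29.8, 23.4, 22.7, 27.1 and 27.4 FPKM in 8-week CRD and 26.3, 21.1, 23.7, 24.9 and 23.6 FPKM in 8-week CON hypothalami. The lowest of 19 hippocampi had 72.0 FPKM and the highest of 19 hypothalami 29.8 FPKM, and within each region the groups overlapped. The log2 difference was 1.70 ± 0.08 at 18 months (adjusted p = 2.98e-19) and 1.70 ± 0.07 at 8 weeks (adjusted p = 9.32e-21). Gabra5 accounted for 33.8 to 38.7% of the summed alpha subunit FPKM in the hippocampus groups and 14.1 to 15.9% in the hypothalamus groups.

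Gabra2, the alpha subunit of axon initial segments, lies at chromosome 5, 70957597 to 71095849, minus strand and was higher in hippocampus. Gabra2 had 39.1, 38.8, 34.3, 35.4 and 30.9 FPKM in 18-month CRD and 49.3, 41.7, 31.5 and 38.4 FPKM in 18-month CON hippocampi, and 32.1, 38.7, 36.4, 27.3 and 41.5 FPKM in 8-week CRD and 45.4, 45.5, 46.6, 46.4 and 44.2 FPKM in 8-week CON hippocampi. Gabra2 had 24.2, 23.2, 23.6, 19.3 and 19.4 FPKM in 18-month CRD and 27.9, 22.9, 23.4 and 25.1 FPKM in 18-month CON hypothalami, and 22.0, 26.6, 23.1, 20.7 and 27.9 FPKM in 8-week CRD and 22.2, 31.7, 22.1, 24.9 and 22.3 FPKM in 8-week CON hypothalami. The 8-week CON hippocampi were within 44.2 to 46.6 FPKM, the tightest group of this gene, and the log2 difference was 0.66 ± 0.12 at 18 months (adjusted p = 2.54e-05) and 0.88 ± 0.11 at 8 weeks (adjusted p = 1.92e-08). Gabra3, an X-linked alpha subunit known from monoaminergic and reticular thalamic neurons, was lower in hippocampus. Gabra3 had 18.8, 20.6, 20.7, 19.0 and 17.3 FPKM in 18-month CRD and 17.7, 15.8, 18.7 and 18.1 FPKM in 18-month CON hippocampi, and 17.8, 11.7, 19.8, 20.3 and 18.8 FPKM in 8-week CRD and 19.2, 15.2, 18.9, 20.5 and 19.8 FPKM in 8-week CON hippocampi. Gabra3 had 33.6, 32.4, 32.2, 34.9 and 35.4 FPKM in 18-month CRD and 38.9, 36.4, 35.4 and 34.5 FPKM in 18-month CON hypothalami, and 32.9, 34.7, 33.4, 31.4 and 35.2 FPKM in 8-week CRD and 29.4, 37.1, 31.5, 38.1 and 37.6 FPKM in 8-week CON hypothalami. No hippocampus library reached the lowest hypothalamus library, and the log2 difference was -1.01 ± 0.11 at 18 months (adjusted p = 6.68e-10) and -0.86 ± 0.10 at 8 weeks (adjusted p = 1.64e-09). Gabra4, which pairs with delta subunits in dentate gyrus and thalamus, was higher in hippocampus. Gabra4 had 21.2, 24.1, 23.0, 21.8 and 21.6 FPKM in 18-month CRD and 21.3, 25.1, 25.2 and 20.7 FPKM in 18-month CON hippocampi, and 22.8, 18.5, 21.4, 20.6 and 22.4 FPKM in 8-week CRD and 23.4, 24.8, 22.2, 26.2 and 21.8 FPKM in 8-week CON hippocampi. Gabra4 had 8.28, 11.3, 8.88, 16.5 and 17.7 FPKM in 18-month CRD and 11.9, 14.7, 16.4 and 11.9 FPKM in 18-month CON hypothalami, and 10.9, 18.9, 20.1, 10.2 and 9.32 FPKM in 8-week CRD and 11.2, 16.7, 8.62, 16.8 and 15.2 FPKM in 8-week CON hypothalami. Its hypothalamus values spread widely within every group, and the log2 difference was 0.71 ± 0.20 at 18 months (adjusted p = 0.00373) and 0.78 ± 0.18 at 8 weeks (adjusted p = 4.65e-04). Gabra6 was low in every library, between 0 and 0.180 FPKM in hippocampus and between 0 and 0.250 FPKM in hypothalamus, and was not tested.

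Beta subunits line the GABA binding site together with alpha. Gabrb1 had 11.9 ± 1.32 FPKM in hippocampus and 11.1 ± 1.58 FPKM in hypothalamus, Gabrb2 had 27.2 ± 5.25 FPKM in hippocampus and 25.2 ± 5.64 FPKM in hypothalamus, and neither was called. Gabrg3, which encodes a gamma subunit, was lower in hippocampus, by -0.62 ± 0.10 at 18 months and -0.55 ± 0.09 at 8 weeks. Gabrg1, a gamma subunit that gives receptors a low benzodiazepine sensitivity, was lower too. Gabrg1 had 8.55, 8.52, 7.08, 8.71 and 6.86 FPKM in 18-month CRD and 7.82, 5.74, 7.50 and 8.02 FPKM in 18-month CON hippocampi, and 5.48, 3.92, 8.58, 6.91 and 7.73 FPKM in 8-week CRD and 7.63, 8.13, 8.71, 8.22 and 7.89 FPKM in 8-week CON hippocampi. Gabrg1 had 22.7, 21.2, 26.4, 19.8 and 20.5 FPKM in 18-month CRD and 32.5, 24.5, 22.6 and 24.8 FPKM in 18-month CON hypothalami, and 21.8, 27.2, 24.3, 20.5 and 29.9 FPKM in 8-week CRD and 22.8, 28.5, 25.6, 25.3 and 24.4 FPKM in 8-week CON hypothalami. No hippocampus library came near the lowest hypothalamus library, and the log2 difference was -1.71 ± 0.14 at 18 months (adjusted p = 1.68e-12) and -1.53 ± 0.13 at 8 weeks (adjusted p = 1.30e-12).

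Among all members the largest regional differences were those of Gabrq and Gabre. These genes encode the theta and epsilon subunits, which are known from hypothalamus and from monoaminergic nuclei. Gabrq had 0.84, 0.37, 0.61, 0.83 and 0.31 FPKM in 18-month CRD and 0.21, 0.18, 0.35 and 0.44 FPKM in 18-month CON hippocampi, and 0.26, 0.06, 0.14, 0.61 and 0.47 FPKM in 8-week CRD and 0.22, 0.30, 0.34, 0.30 and 0.19 FPKM in 8-week CON hippocampi. Gabrq had 12.2, 9.78, 13.9, 8.95 and 10.2 FPKM in 18-month CRD and 13.3, 9.27, 11.3 and 10.4 FPKM in 18-month CON hypothalami, and 11.3, 9.77, 9.39, 10.3 and 14.7 FPKM in 8-week CRD and 11.2, 9.83, 9.74, 10.7 and 9.14 FPKM in 8-week CON hypothalami. Every hypothalamus library held at least 8.95 FPKM of Gabrq and no hippocampus library held more than 0.840 FPKM. The log2 difference was -3.21 ± 0.14 at 18 months (adjusted p = 1.69e-20) and -3.13 ± 0.12 at 8 weeks (adjusted p = 1.15e-21), and with a pseudocount of 0.1 it was -4.86 at 18 months and -4.80 at 8 weeks. Gabre had 0.62, 0.35, 0.37, 0.39 and 0.26 FPKM in 18-month CRD and 0.26, 0.28, 0.20 and 0.29 FPKM in 18-month CON hippocampi, and 0.32, 0.24, 0.24, 0.50 and 0.45 FPKM in 8-week CRD and 0.28, 0.42, 0.46, 0.30 and 0.31 FPKM in 8-week CON hippocampi. Gabre had 5.94, 4.33, 5.06, 3.81 and 4.35 FPKM in 18-month CRD and 5.72, 3.43, 4.92 and 3.89 FPKM in 18-month CON hypothalami, and 5.83, 4.40, 4.19, 4.59 and 5.80 FPKM in 8-week CRD and 5.39, 4.34, 5.12, 5.20 and 4.14 FPKM in 8-week CON hypothalami. The Gabre ranges did not overlap either, and the log2 difference was -2.11 ± 0.12 at 18 months (adjusted p = 2.51e-17) and -2.10 ± 0.10 at 8 weeks (adjusted p = 8.66e-19), or -3.66 at 18 months and -3.45 at 8 weeks with the smaller pseudocount. Of the summed FPKM of Gabrd, Gabre and Gabrq, Gabrd took 90.4 to 94.1% in the hippocampus groups, and Gabrq took 52.6 to 57.1% in the hypothalamus groups.

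Gabrd encodes the delta subunit, which gives receptors outside the synapse their high affinity and steroid sensitivity, in dentate granule cells and thalamus among others. It lies at chromosome 4, 155384980 to 155398112, minus strand. Gabrd had 8.56, 8.71, 10.1, 8.82 and 11.2 FPKM in 18-month CRD and 6.08, 9.76, 9.43 and 9.43 FPKM in 18-month CON hippocampi, and 10.8, 13.1, 8.33, 12.4 and 8.77 FPKM in 8-week CRD and 10.5, 9.81, 9.81, 10.1 and 9.28 FPKM in 8-week CON hippocampi. Gabrd had 0.56, 4.30, 0.91, 7.08 and 6.99 FPKM in 18-month CRD and 2.50, 5.22, 4.90 and 3.15 FPKM in 18-month CON hypothalami, and 1.07, 5.18, 9.80, 1.51 and 0.52 FPKM in 8-week CRD and 2.27, 6.40, 1.03, 6.98 and 5.87 FPKM in 8-week CON hypothalami. Hippocampi were within 6.08 to 13.1 FPKM, whereas single hypothalami ran between 0.520 and 9.80 FPKM with a wide spread in all 4 groups. The log2 difference was 0.99 ± 0.47 at 18 months (adjusted p = 0.0801) and 1.17 ± 0.42 at 8 weeks (adjusted p = 0.0194). The call at 8 weeks was lost without replicate 1 (adjusted p = 0.0567) or replicate 3 (adjusted p = 0.0942) of the 8-week CON hypothalami. The spread within hypothalamus moved with thalamic markers. The summed level of Tcf7l2, Lef1, Prkcd, Rora, Plekhg1 and Rgs16 was 31.2 FPKM in 18-month CRD replicate 1, where Gabrd was 0.560 FPKM and Gabra4 8.28 FPKM. It was 42.5 FPKM in 8-week CON replicate 3, with Gabrd at 1.03 FPKM and Gabra4 at 8.62 FPKM, and 102 FPKM in 8-week CON replicate 4, with Gabrd at 6.98 FPKM and Gabra4 at 16.8 FPKM. The highest marker sum, 127 FPKM, stood beside the highest Gabrd, 9.80 FPKM, and the highest Gabra4, 20.1 FPKM, all in 8-week CRD replicate 3. Hippocampi had a thalamic marker sum of 16.8 to 37.9 FPKM with Gabrd at 6.08 FPKM or more. This relation was noticed after the values were seen, and the part of thalamic tissue in the Gabrd and Gabra4 values was not tested.

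Of the rho subunits only Gabrr2 was tested, at 1.02 ± 0.342 FPKM in hippocampus and 0.969 ± 0.252 FPKM in hypothalamus (SD, n = 19 each), and it was not called at either age. Gabbr1 was lower in hippocampus, by -0.35 ± 0.09 at 18 months and -0.35 ± 0.08 at 8 weeks. Gabbr2, the GABA-B subunit that couples to the G protein, had 26.4 ± 6.67 FPKM in hippocampus and 30.4 ± 4.49 FPKM in hypothalamus (SD, n = 19 each) and was not called. Within hippocampus its lowest values were 6.10 FPKM in 8-week CRD replicate 2 and 11.1 FPKM in 18-month CRD replicate 4, both among the libraries with low Ttr. Both also had the lowest differences in log2 deviation between long genes (at least 6000 bases) and short genes (under 2000 bases), at -0.67 and -0.53. In 18-month CRD replicate 1 and 8-week CRD replicate 4, also low in Ttr, that difference was -0.07 and -0.09. The part of length or Ttr in the Gabbr2 values was not tested.

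**Figure D3:**
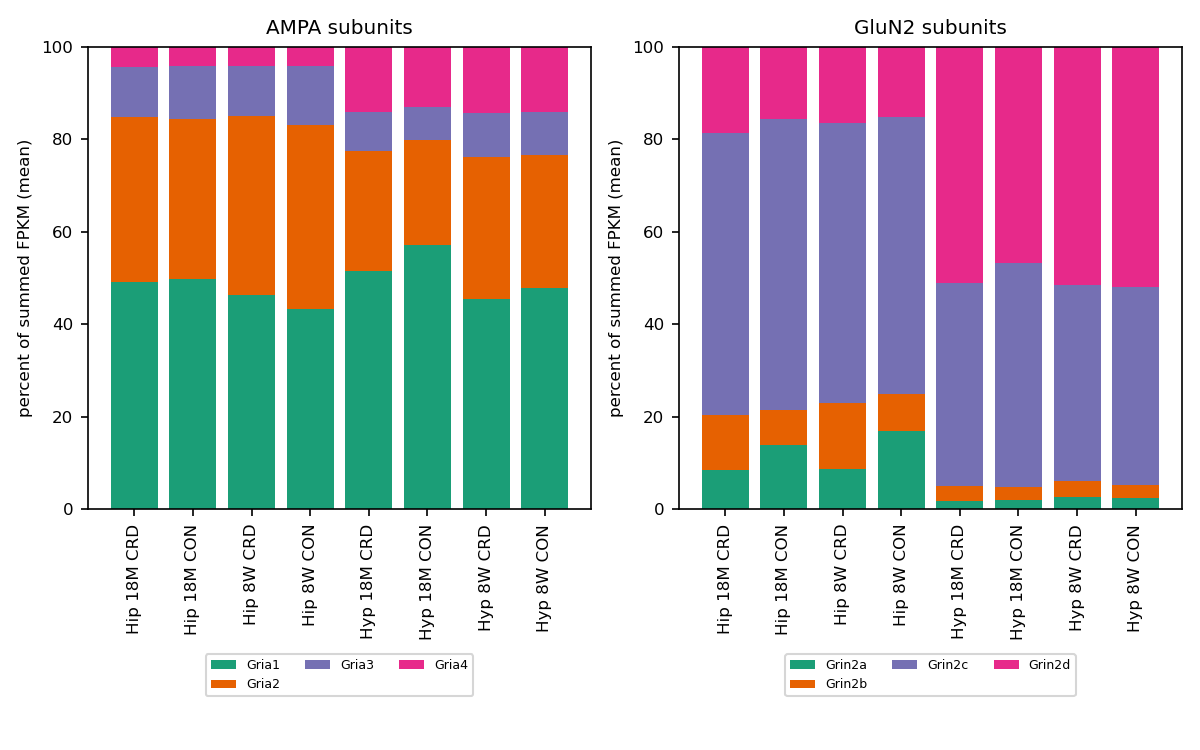
Mean percent of summed FPKM taken by each subunit of the AMPA and GluN2 families in the 8 groups (n = 4 or 5 libraries each), hippocampus (Hip) left of hypothalamus (Hyp) and CRD left of CON. Gria4 takes 4.1 to 4.4% of AMPA subunits in hippocampus and 13.0 to 14.3% in hypothalamus, and Grin2d takes 15.2 to 18.7% of GluN2 in hippocampus and 46.7 to 52.0% in hypothalamus.

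Many GABA-A subunit genes lie in clusters in GRCm38, and neighbours did not always share a direction. On chromosome X, Gabre, Gabra3 and Gabrq lie within 587 kb (72255999 to 72842602), and all 3 were lower in hippocampus. On chromosome 7, Gabra5 was higher in hippocampus and its neighbour Gabrg3 was lower. On chromosome 5, Gabrg1, Gabra2, Gabra4 and Gabrb1 lie within 1398 kb (70751047 to 72149037). Gabra2 and Gabra4 were higher in hippocampus, Gabrg1 was lower and Gabrb1 was not called. Gabra4 and Gabrb1 overlap on opposite strands over 196 bases, and Gabra5 overlaps another gene on the opposite strand over most of its span, introns included. No source states counting by strand, so reads from exons that lie in a shared stretch cannot be told apart.

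Genes that serve these receptors differed between the regions as well. Of 48 scaffold and auxiliary subunit genes, 26 were higher and 13 lower in hippocampus at each age, beside 18.5% of all genes higher and 29.1% lower at 18 months and 17.6% higher and 33% lower at 8 weeks. Nptx1, a pentraxin that gathers AMPA receptors, had 77.9 ± 4.25 FPKM in hippocampus and 13.2 ± 0.818 FPKM in hypothalamus of 18-month CON mice (SD, n = 4 each), and Shisa6, an AMPA receptor auxiliary protein, had 12.5 ± 1.17 FPKM in hippocampus and 1.57 ± 0.253 FPKM in hypothalamus. Of 21 genes for synthesis and transport of the transmitters, 7 were higher at each age and 11 lower at 18 months and 10 at 8 weeks, to be read beside the same shares. The vesicular glutamate transporters were opposed. Slc17a7 had 424 ± 33.6 FPKM in hippocampus and 4.99 ± 1.36 FPKM in hypothalamus, and Slc17a6 had 3.93 ± 1.24 FPKM in hippocampus and 59.5 ± 4.45 FPKM in hypothalamus of 18-month CON mice (SD, n = 4 each). Slc6a11, the GABA transporter GAT3 of astrocytes, had 44.8 ± 4.52 FPKM in hippocampus and 279 ± 19.6 FPKM in hypothalamus.

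In hippocampus, the disrupted light schedule gave no called change of a receptor gene at either age. At 18 months, limma called 0 of 39 members tested, as it called 0 of all 14313 genes (0%). At an unadjusted p under 0.05, 1 member was higher in CRD, beside 2.58% of all genes, and 2 were lower, beside 2.65%. The smallest p belonged to Grm2, at 10.4, 11.2, 12.8, 10.9 and 13.6 FPKM in 18-month CRD hippocampi and 13.0, 15.6, 14.1 and 14.3 FPKM in 18-month CON hippocampi. The groups overlapped slightly, and the CRD minus CON difference was -0.26 ± 0.09 on the log2 scale (adjusted p = 0.812). Grin2a, with its values given above, differed by -0.62 ± 0.23, Grm4 by 0.27 ± 0.12 and Gabrr2 by 0.28 ± 0.14, each with an adjusted p of 0.812. Grin2b was the only member whose libraries did not overlap with CRD higher (1 of 39, 2.56%), beside 0.992% of all genes. It had 1.99 to 3.51 FPKM in 18-month CRD and 1.71 to 1.84 FPKM in 18-month CON hippocampi. No member was apart with CRD lower, beside 1.03% of all genes. The median over the 39 members was -0.04, and over all genes -0.02. Genes with a longest transcript of at least 6000 bases had a median of -0.11 and those under 2000 bases 0.06. The summed choroid plexus marker level was 45.7 to 7425 FPKM in 18-month CRD and 6335 to 8632 FPKM in 18-month CON hippocampi, and the part of either in these values was not tested.

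At 8 weeks limma again called 0 of 39 hippocampal members and 0 of 14313 genes (0%), but the receptor genes leaned to lower values in CRD. At an unadjusted p under 0.05, 0 members were higher, beside 6.53% of all genes, and 13 of 39 (33.3%) were lower, beside 14.1% of all genes. The CRD and CON libraries did not overlap, with CRD lower, for 5 members (12.8%), beside 4.43% of all genes. They were Grin2a, Gria3, Grm5, Gabra2 and Gabrg3. Grin2a averaged 2.09 ± 0.817 FPKM in 8-week CRD hippocampi and 4.67 ± 0.810 FPKM in 8-week CON hippocampi (SD, n = 5 each), a difference of -0.91 ± 0.22 on the log2 scale (adjusted p = 0.167). Gabra2 averaged 35.2 ± 5.59 FPKM in CRD and 45.6 ± 0.971 FPKM in CON hippocampi, a difference of -0.38 ± 0.11. Grm5 averaged 20.7 ± 3.00 FPKM in CRD and 27.5 ± 2.79 FPKM in CON hippocampi, a difference of -0.39 ± 0.12. Gria3 averaged 27.1 ± 3.29 FPKM in CRD and 36.0 ± 3.89 FPKM in CON hippocampi, a difference of -0.40 ± 0.12. Each of these also had an adjusted p of 0.167. The other 9 of the 13, Grik3, Gabrg3, Gabrb1, Gabrg1 and Gria4 among them, had differences between -0.40 and -0.17 and adjusted p between 0.172 and 0.237.

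All 4 AMPA receptor genes had a lower mean log2 level in 8-week CRD than in 8-week CON hippocampi. Gabra5 had a higher mean, at 83.5 ± 6.55 FPKM in CRD and 79.7 ± 4.98 FPKM in CON hippocampi, a difference of 0.06 ± 0.07. In all, 31 of 39 members had a difference below 0, with a median of -0.14 over the members, -0.11 over the glutamate receptor genes, -0.18 over the GABA receptor genes and -0.05 over all genes. Most of all genes tested thus lay below 0 too, and the members share the same libraries, so their differences are not independent. Transcript length moved with this comparison. Genes with a longest transcript of at least 6000 bases had a median difference of -0.23 and those under 2000 bases 0.10, and the members are long, with a median of 4771 bases beside 3154 bases for all genes tested. Among the members, the 10 of at least 6000 bases had a median difference of -0.21 and the 29 shorter ones -0.11. The difference in log2 deviation between long and short genes ran between -0.67 and 0.11 in the 8-week CRD hippocampi and between 0.17 and 0.33 in the 8-week CON hippocampi. The -0.67 was that of 8-week CRD replicate 2, and the other 4 CRD libraries lay between -0.09 and 0.11. With each library's length trend subtracted, the members lower in CRD at an unadjusted p under 0.05 numbered 2 of 39 (5.13%), beside 6.93% of all genes, and the median difference over all 39 members was 0.00. That alternative was chosen after seeing the data. Without the hippocampi low in Ttr the lower members numbered 12 (30.8%), beside 8.36% of all genes, and without 8-week CRD replicate 2 they numbered 15 (38.5%), beside 11.3%. The summed level of 8 choroid plexus markers was 49.6 to 12478 FPKM in 8-week CRD and 3074 to 9936 FPKM in 8-week CON hippocampi. The parts of transcript length and of choroid plexus in the result were not tested.

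Whether the schedule acted differently at the labelled ages was tested as the CRD effect at 18 months minus that at 8 weeks. In hippocampus limma called 0 of 39 members, beside 0.021% of all genes, and at an unadjusted p under 0.05 it had 0 members lower and 1 higher (2.56%), beside 1.89% of all genes. This was Gabrg1, whose library values stand above. Its lowest hippocampi were replicates 2 and 1 of 8-week CRD, and the difference of effects was 0.43 ± 0.20 (adjusted p = 1.000). Gabrr2 had 0.39 ± 0.19, Gabrg3 0.27 ± 0.13 and Gria4 0.24 ± 0.12, all with an adjusted p of 1.000.

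In hypothalamus the schedule gave no called change of a receptor gene either. At 18 months limma called 0 of 40 members, beside 0.0277% of all 14437 genes. At an unadjusted p under 0.05, 2 members were higher in CRD, beside 6.43% of all genes, and 1 was lower, beside 5.67%. Grin1 averaged 59.1 ± 3.78 FPKM in CRD (n = 5) and 49.8 ± 1.10 FPKM in CON hypothalami (n = 4, SD), a difference of 0.24 ± 0.07 on the log2 scale (adjusted p = 0.217). Gria1 averaged 76.0 ± 3.54 FPKM in CRD and 88.6 ± 4.46 FPKM in CON hypothalami, a difference of -0.22 ± 0.07 (adjusted p = 0.248). Grik5 averaged 43.1 ± 3.24 FPKM in CRD and 39.0 ± 1.32 FPKM in CON hypothalami, a difference of 0.14 ± 0.06 (adjusted p = 0.353). For each of these 3 genes the CRD and CON libraries did not overlap, as for 3.37% of all genes with CRD higher and 2.98% with CRD lower. Gabrg1 differed by -0.22 ± 0.11 (adjusted p = 0.436). The median was 0.10 over glutamate receptor genes, -0.10 over GABA receptor genes and 0.03 over all genes.

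At 8 weeks limma called 0 of 40 hypothalamic members and 0% of all genes, and at an unadjusted p under 0.05 it had 0 members higher, beside 0.651% of all genes, and 0 lower, beside 0.755%. No member had CRD and CON libraries apart, beside 0.0693% of all genes apart with CRD higher and 0.104% with CRD lower. Grin2b had the lowest p, at 0.850 ± 0.0212 FPKM in CRD and 0.684 ± 0.238 FPKM in CON hypothalami (SD, n = 5 each), a difference of 0.15 ± 0.09, and Gabra5 was at 26.1 ± 2.97 FPKM in CRD and 23.9 ± 1.94 FPKM in CON hypothalami, a difference of 0.12 ± 0.07. Grid1 differed by -0.08 ± 0.06 and Grik2 by 0.19 ± 0.16, and all 4 had an adjusted p of 1.000. For the difference between the effects at 18 months and 8 weeks, limma called 0 of 40 members, beside 0.0485% of all genes. At an unadjusted p under 0.05, 2 members were higher, beside 3.37% of all genes, and 1 was lower, beside 2.36%. Gria1 had -0.22 ± 0.10, Grin1 0.20 ± 0.09 and Grid1 0.18 ± 0.08, each with an adjusted p of 0.865, and Gabrr2 0.34 ± 0.17 (adjusted p = 0.870).

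**Figure D4:**
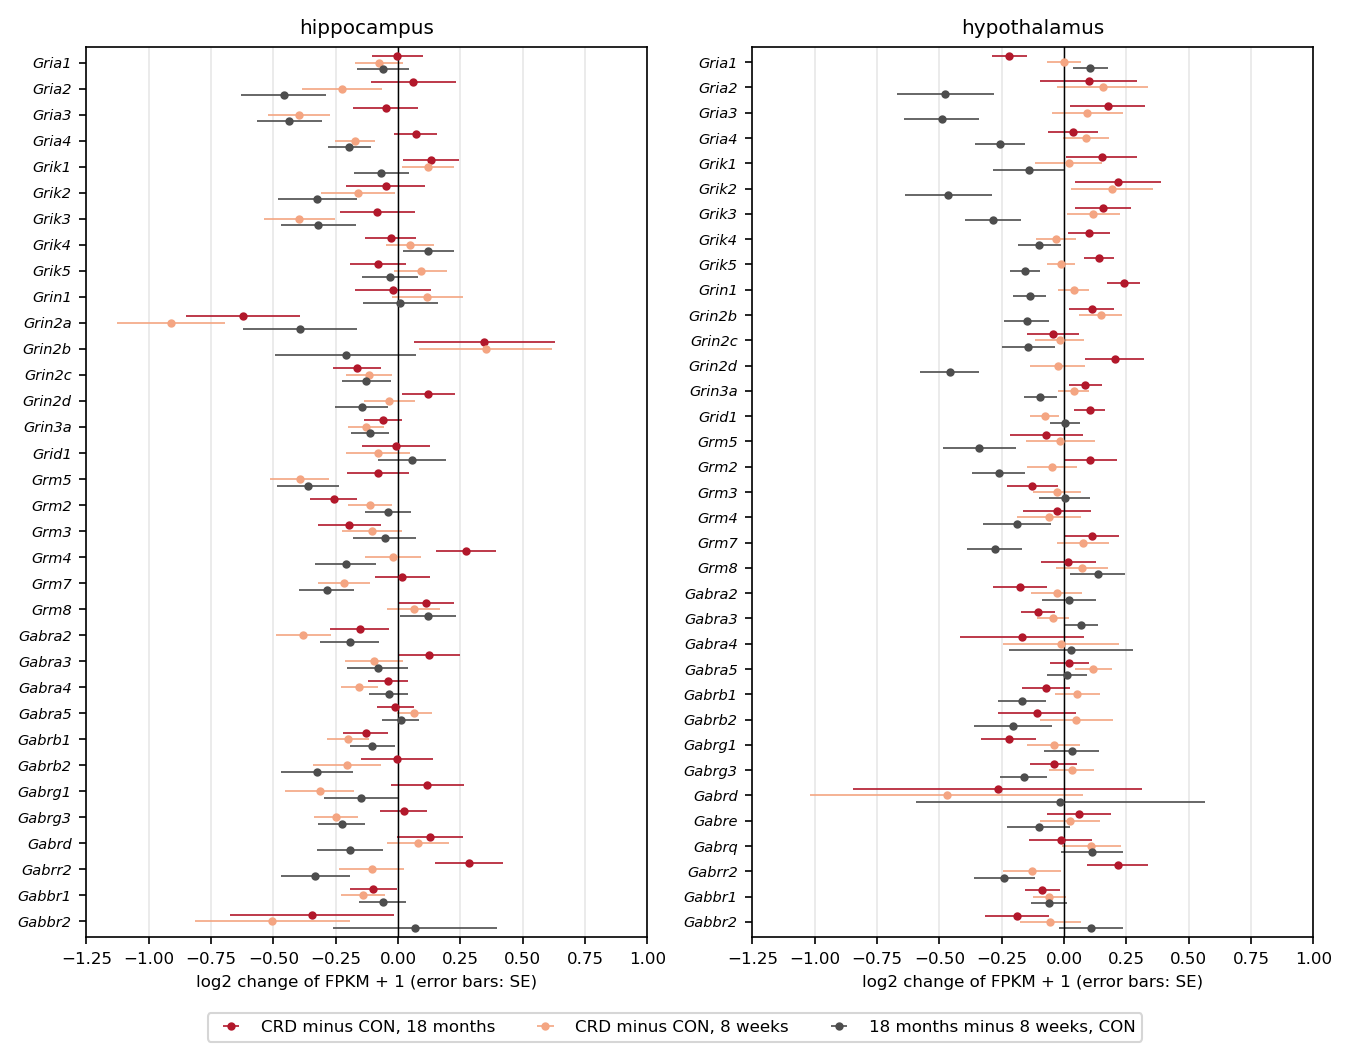
Log2 difference of FPKM + 1 (points, with standard error) for 34 of the 39 members tested in hippocampus (left) and 35 of the 40 tested in hypothalamus (right), for CRD minus CON at 18 months, CRD minus CON at 8 weeks, and 18 months minus 8 weeks in CON mice. Most hippocampal points of the last 2 comparisons lie left of 0, with Grin2a farthest left at -0.91, and only Gria3 and Grin2d in the hypothalamic age comparison passed the test.

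Age was compared in CON mice, 18 months minus 8 weeks, using the same 8-week CON libraries as the comparison of schedules. In hippocampus limma called 0 of 39 members, beside 0.468% of all genes (0.384% higher and 0.0838% lower), and at an unadjusted p under 0.05 it had 0 higher, beside 6.08% of all genes, and 9 lower (23.1%), beside 11.6%. Gria3 averaged 26.3 ± 2.80 FPKM in 18-month (n = 4) and 36.0 ± 3.89 FPKM in 8-week CON hippocampi (n = 5, SD), a difference of -0.44 ± 0.13 (adjusted p = 0.119). Grm5 averaged 21.2 ± 2.52 FPKM at 18 months and 27.5 ± 2.79 FPKM at 8 weeks, a difference of -0.36 ± 0.12 (adjusted p = 0.161). Gria2 averaged 81.1 ± 10.4 FPKM at 18 months and 112 ± 16.2 FPKM at 8 weeks, a difference of -0.46 ± 0.17 (adjusted p = 0.184). Grm7 differed by -0.29 ± 0.11 (adjusted p = 0.197). Without overlap, 8 members (20.5%) were lower at 18 months, beside 11.4% of all genes, and 0 were higher, beside 5.32%. They were Gria2, Gria3, Gria4, Grin2b, Grm5, Grm7, Gabrb2 and Gabrr2. With each library's length trend subtracted, 3 members (7.69%) had an unadjusted p under 0.05 with lower values at 18 months, beside 8.83% of all genes. The median over the members was -0.13 as reported and -0.05 with the trend subtracted, and over all genes -0.02 as reported. The summed level of 6 astrocyte markers was 781 to 1428 FPKM in 18-month and 564 to 662 FPKM in 8-week CON hippocampi. The parts of transcript length and of astrocytes in these values were not tested.

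In hypothalamus limma called 2 of 40 members in the age comparison of CON mice, both glutamate receptor genes with lower values at 18 months. Grin2d had 9.44, 8.37, 8.19 and 9.20 FPKM in 18-month CON hypothalami and 13.2, 14.8, 12.1, 13.5 and 9.29 FPKM in 8-week CON hypothalami. Replicate 5 of the younger group lay among the older ones. The means were 8.80 ± 0.613 FPKM at 18 months and 12.6 ± 2.07 FPKM at 8 weeks, a difference of -0.46 ± 0.12 (adjusted p = 0.0282). Gria3 had 11.9, 11.9, 9.59 and 11.3 FPKM in 18-month CON hypothalami and 15.1, 22.1, 16.0, 16.3 and 12.2 FPKM in 8-week CON hypothalami. The groups did not overlap, with 11.2 ± 1.08 FPKM at 18 months and 16.3 ± 3.61 FPKM at 8 weeks, a difference of -0.49 ± 0.15 (adjusted p = 0.0471). These 2 of 40 members (5%) stand beside 9.95% of all genes called in either direction and 6.21% called lower and 3.73% higher, a share of members no higher than that of all genes. At an unadjusted p under 0.05, 10 members were lower, beside 21.7% of all genes, and 0 higher, beside 10.9%. Without overlap, 2 members (5%), Gria3 among them, were lower at 18 months, beside 6.06% of all genes, and 0 were higher, beside 4.78%. The median was -0.14 over the members, -0.15 over glutamate receptor genes, 0.00 over GABA receptor genes and -0.04 over all genes. Grik2 differed by -0.46 ± 0.17 (adjusted p = 0.0787) and Grik5 by -0.16 ± 0.06 (adjusted p = 0.0803).

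Both calls were lost in some of the alternatives. Gria3 lost its call in 16 of 26 alternative analyses, with an adjusted p between 0.0102 and 0.130, and Grin2d in 7 of 26, with an adjusted p between 0.00370 and 0.0807. No member was called without any of replicates 2, 3 and 4 of 18-month CON or replicates 1 to 4 of 8-week CON. In those settings 0.436 to 1.84% of all genes were called lower and 0.852 to 2.55% higher. Without 8-week CON replicate 5, 11 members were called lower. That library was low in Gria3 and Grin2d, so leaving it out widened their differences, to -0.58 and -0.55. The share of all genes called in that setting is not given here, so the count cannot be set against it. Without replicate 1 of 18-month CON, replicate 1 or 2 of 18-month CRD, or replicate 1, 2 or 5 of 8-week CRD, 1 member was called. All genes called lower made up 3.02% without 18-month CON replicate 1, 4.85% without 18-month CRD replicate 1 and 5.13% without 18-month CRD replicate 2. Astrocyte markers moved with age as well, with a summed level of 6 genes of 1013 to 1128 FPKM in 18-month and 652 to 997 FPKM in 8-week CON hypothalami, and their part in the result was not tested. Long genes had a median age difference of -0.19 and short genes 0.06. With the length trend subtracted, Grin2d was called and Gria3 was not (adjusted p = 0.0720). The part of length in these calls was not tested.

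**Figure D5:**
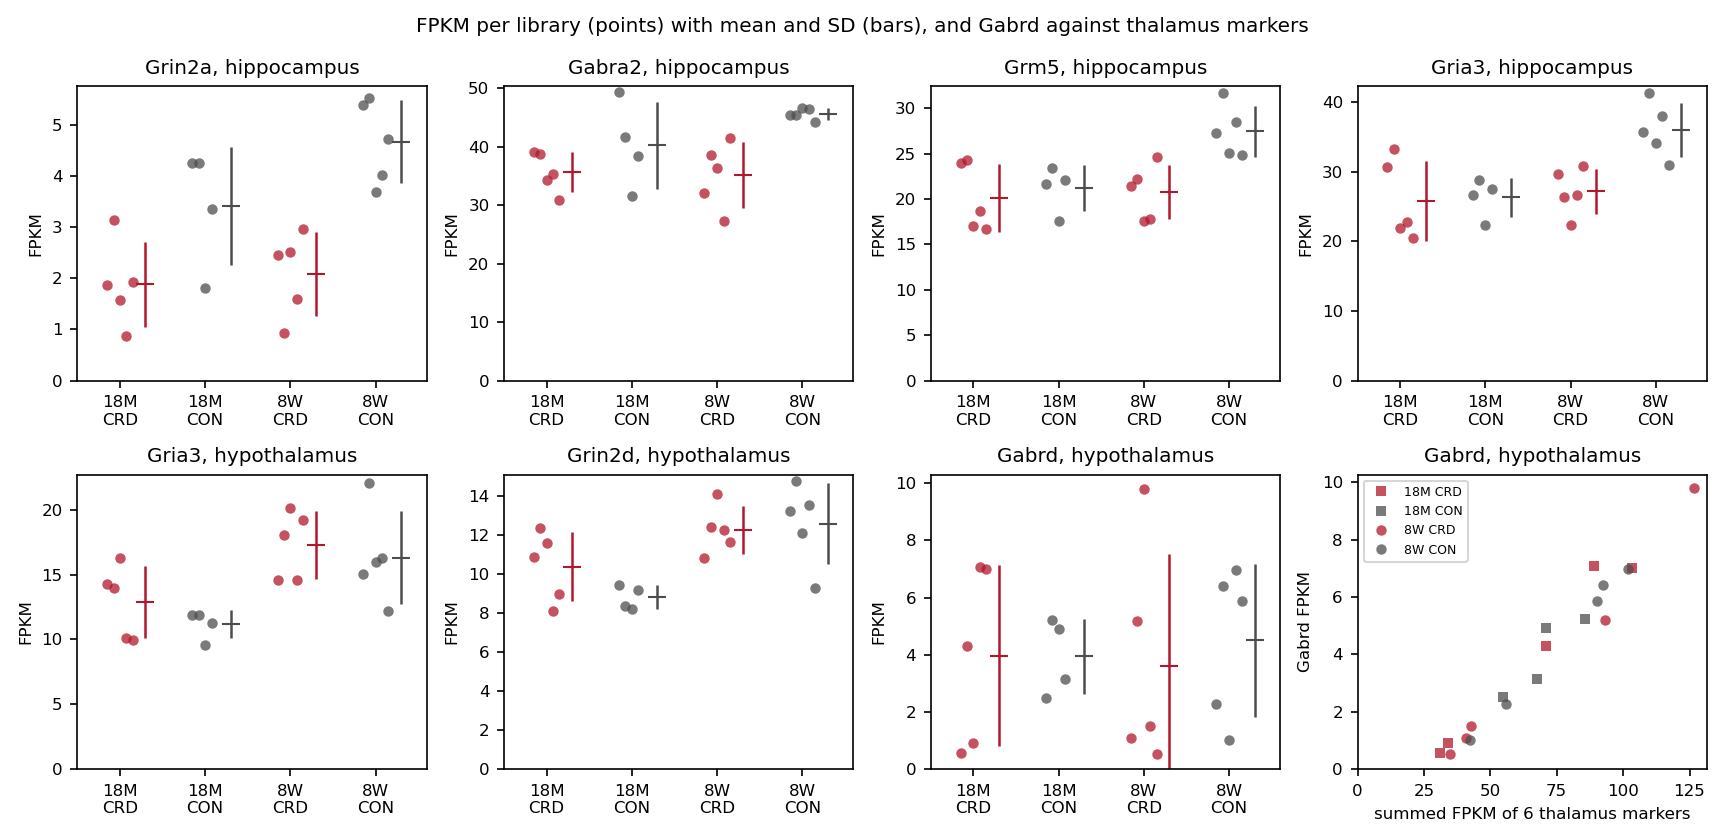
FPKM per library (points) with mean and SD (bars) in the 4 groups for Grin2a, Gabra2, Grm5 and Gria3 in hippocampus and Gria3, Grin2d and Gabrd in hypothalamus, with a last panel of Gabrd against the summed FPKM of 6 thalamus markers in the 19 hypothalamus libraries. The 8-week CON hippocampi lie above the 8-week CRD hippocampi in the first 4 panels, and Gabrd runs between 0.520 and 9.80 FPKM along with the marker sum.

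Among the schedule and age comparisons, genes around the receptors were called in the hypothalamic age comparison only. Of the 48 scaffold and auxiliary genes and the 21 transmitter genes, limma called 0 in any CRD comparison of either region and 0 in the hippocampal age comparison. In the hypothalamic age comparison 8 scaffold and auxiliary genes (16.7%) were called, all lower at 18 months, beside 6.21% of all genes lower and 3.73% higher. With the length trend subtracted, 4 were called lower (8.33%) and 3 higher, beside 2.47% of all genes lower and 3.56% higher. Leaving out replicate 2, 3 or 4 of 18-month CON or of 8-week CON left between 2 and 5 called lower (4.17 to 10.4%). In those settings 0.436 to 0.873% of all genes were called lower. Without 8-week CON replicate 5 there were 13 scaffold and auxiliary genes called lower, a setting whose share of all genes is not given here. Shank1, a core scaffold of the postsynaptic density, averaged 32.4 ± 4.67 FPKM at 18 months and 46.8 ± 6.25 FPKM at 8 weeks (adjusted p = 0.0156). Shank2 averaged 8.53 ± 0.858 FPKM at 18 months and 13.3 ± 2.86 FPKM at 8 weeks (adjusted p = 0.0284). The only called transmitter gene was Slc1a3, the astrocytic glutamate transporter GLAST, at 249 ± 11.2 FPKM in 18-month and 194 ± 31.8 FPKM in 8-week CON hypothalami (adjusted p = 0.0413). It was not called without a filter on low values or without any 1 of the 18-month CON replicates or of replicates 1 to 4 of 8-week CON. Slc1a3 is also 1 of the 6 astrocyte markers. Within groups, the coefficient of variation of a member's FPKM (the pooled SD of the 4 groups over the mean of their means, for members averaging 1 FPKM or more) had a median of 13.7% over 39 members in hippocampus, with the lowest at 6.91% and the highest, of Grin2b, at 74.7%. Without 8-week CRD replicate 2 the value of Grin2b was 18.2%, and the highest was that of Grin2a at 28.0%. In hypothalamus it had a median of 12.9% over 38 members, with the lowest at 6.01% and the highest, of Gabrd, at 72.9%.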

How the data were processed

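The deposited table holds FPKM per gene for 78 libraries, of which the 38 from hippocampus and hypothalamus were tested and the 40 from gut and blood only described. Per the labels' protocols, RNA was extracted with Trizol, poly(A) RNA was selected with oligo(dT), and random hexamers primed the cDNA. Per the submitters' processing notes, the authors used HISAT2, Bowtie2, RSEM and DESeq2 with GRCm38. Their versions and settings are not given in the sources used here. Since FPKM keeps no depth, no counting error could be given.

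Values were tested as log2(FPKM + 1) with limma 3.58.1 in R 4.3.3 (group means, eBayes with trend), 1 fit per region and 1 over both regions, for genes averaging 0.5 FPKM or more, with Benjamini-Hochberg adjustment over all genes of the fit and a threshold of 0.05. The fit was also run on simulated data with independent noise for each gene. That run cannot show how the fit handles a deviation that many genes of a library share. Tables and figures used Python 3.11.15, pandas 2.3.3, numpy 2.4.6 and matplotlib 3.10.9. The 3 symbols on several rows are not members. Coordinates are those of GENCODE genes on GRCm38, 1-based, and all 47 members matched. Transcript length was the longest protein-coding transcript, and the length trend was the median deviation in 20 length bins of each library, an alternative chosen after seeing the data. The alternatives for the scaffold and transmitter lists, and the coefficient of variation without 1 library, were also chosen after seeing the data.

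Members were picked by gene symbol and not by expression value. The set, like the marker and gene lists, was chosen with earlier results of these data known. Named were all called members of the schedule and age comparisons, filled up to 4 by smallest p, and in the regional comparison the 6 highest and 6 lowest called members averaging 1 FPKM or more in their higher region; library values are given for the AMPA, GABA-A alpha and Grin1 to Grin2d genes, and other members are given by level. Of the accessory lists, the 3 called genes with the largest change are named. Some genes that these rules cover enter the counts and are not reported here. Alternatives were a pseudocount of 0.1, no filter or a filter of 1 FPKM, median-of-ratios scaling, no variance trend, a replicate block, leaving out each library or the 4 hippocampi low in Ttr, and the length trend.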

Additional observations from a re-analysis of the deposited data

Results flagged for a closer look

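In 7 of 120 groups of 4 or 5 libraries of the AMPA and GABA-A alpha genes and Grin1 to Grin2d 1 library lay far from the others, and chance alone gives about 1 in 20. In hippocampus, Grin1 was 63.56 FPKM in 18-month CRD replicate 4 (the others 73.29 to 75.59 FPKM), which is also low in Ttr and in Gabbr2. The difference in log2 deviation between long and short genes was -0.53 in that library. Grin2b was 10.78 FPKM in 8-week CRD replicate 2 (the others 1.81 to 2.64 FPKM). That library also held the highest Grin1, 123.02 FPKM, and the lowest Gabbr2, 6.10 FPKM, of all hippocampi, and is low in Ttr. Its difference between long and short genes was -0.67. Gabra6 was 0.18 FPKM in 8-week CON replicate 2 (the others 0.03 to 0.05 FPKM). In hypothalamus, Grin2a was 1.0 FPKM in 8-week CON replicate 2 (the others 0.41 to 0.53 FPKM) and Grin2c was 7.47 FPKM in 18-month CON replicate 3 (the others 9.58 to 9.98 FPKM). Gabra6 was 0.25 FPKM in 18-month CON replicate 4 (the others 0.07 to 0.09 FPKM) and 0.03 FPKM in 8-week CRD replicate 3, where the other libraries were listed at 0.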

How the results depend on the processing

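In the regional comparison between 31 and 33 members were called at 18 months and between 31 and 34 at 8 weeks under all 46 alternatives. As reported, 47.6% of all genes were called at 18 months and 50.5% at 8 weeks. Of the alternatives, 38 left out 1 library. Where that library was outside the comparison, the log2 difference could not change, only its standard error. All CRD comparisons and their differences between ages had 0 called members under every alternative. The hippocampal age comparison, with 0 called members, had 1 under the replicate block (Gria2, adjusted p = 0.0361) and 1 without the hippocampi low in Ttr. The hypothalamic age comparison, with 2 called members, had 1 without a filter on low values, 1 without a variance trend and 1 with the length trend removed. Under the replicate block 6 members were called, beside 16.1% of all genes called lower and 5.85% higher. When a library was left out, 0 to 11 members were called. The share of all genes called lower moved too, at 0.436% without 18-month CON replicate 2 and 9.55% without 18-month CRD replicate 3. The causes were not tested. Replicate numbers were not taken to pair samples, so the regional fit treated hippocampi and hypothalami as independent. The replicate block tied libraries of equal number, across groups within a region or, in the regional fit, across regions within a group. CRD and CON libraries of the same number had deviations correlated over 0.1 in 6 of 18 pairs (-0.33 to 0.38). They matched best in 3 of 18. For hippocampus and hypothalamus of the same number these counts were 14 of 19 (-0.19 to 0.60) and 11 of 19. Over named members, 1921 alternative values kept side and direction, 4 became called, 25 lost the call and 0 reversed. Many of these values come from leaving out a library outside the comparison, which cannot change the difference. Of the 25 lost calls, 16 were of Gria3 and 7 of Grin2d in the hypothalamic age comparison. With the length trend removed, the median difference of members was 0.03 for CRD minus CON at 18 months and 0.00 at 8 weeks in hippocampus, beside -0.04 and -0.14 as reported. Scaling moved the median of all genes by at most 0.08 (log2). Unknown depth limits what can be said of members under 0.5 FPKM.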

Other observations

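Few of the receptor genes were expressed outside the brain. Over the 36 libraries of cecum and colon, 38 of the 47 members had a mean under 0.5 FPKM and 3 had a mean of at least 1 FPKM: Gabbr1 at 4.98 FPKM (2.13 to 8.94 FPKM), Grik5 at 4.65 FPKM (2.42 to 8.02 FPKM) and Gabra3 at 1.86 FPKM (0.320 to 4.50 FPKM). Over the 4 libraries of blood mononuclear cells, 3 members had a mean of at least 1 FPKM. They were Gabbr1, between 1.76 and 12.3 FPKM, Gabre, between 0.230 and 2.87 FPKM, and Grik5, between 0.610 and 2.47 FPKM. Gabbr1 and Grik5 were thus present in each of the 5 tissues.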
